A study of Homo sapiens with 9 samples.

Results

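EGF and FGF signaling was examined here through 10 genes: the ligands HBEGF and FGF2, the EGF receptor family EGFR, ERBB2, ERBB3 and ERBB4, the FGF receptors FGFR1, FGFR2 and FGFR3, and the receptor inhibitor ERRFI1. Every probe set whose only gene symbol in the annotation of the array was 1 of these 10 was included, which gave 48 of the 54613 probe sets measured. EGFR had 9 probe sets, ERBB2 3, ERBB3 5, ERBB4 4, FGFR1 7, FGFR2 11, FGFR3 2, HBEGF 4, FGF2 2 and ERRFI1 1. The arrays were Affymetrix U133 Plus 2.0 and held RNA from Rh30, a human fusion-positive rhabdomyosarcoma (FP-RMS) cell line that carries the PAX3-FOXO1 fusion gene, with 3 arrays in each of 3 groups. All values are log2 RMA values, in which a difference of 1 is a 2-fold difference in signal.

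Adherent Rh30 cells were grown in RPMI with 10% FBS. Spheres were Rh30 cells kept for 48 h in Neurobasal medium supplemented with EGF at 40 ng/ml, bFGF (the protein encoded by FGF2) at 80 ng/ml, insulin at 50 µg/ml and 1X B27. EGF, bFGF, insulin and B27 were thus added to the spheres and not to the adherent cells, and the change of shape and the change of medium cannot be told apart. Xenografts were tumors of Rh30 cells in SCID/beige mice. For the microarray study, the methods of the paper place 1000000 adherently grown cells in the left gastrocnemius. They give an injection under the skin of the flank with Matrigel for the separate limiting dilution assays. The sample labels describe the flank injection with Matrigel, so labels and methods differ and the site was not settled. All 3 groups derive from 1 cell line and carry the same fusion gene.

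The ERBB receptors are tyrosine kinases that pair when a ligand of the EGF family binds, and ERBB2, which has no known ligand of its own, serves as the partner of the others. FGF receptors bind FGFs together with heparan sulfate and hand the signal to adaptor proteins and the RAS-ERK cascade. In skeletal muscle, FGF signaling is known for keeping myoblasts dividing, and neuregulin signaling through ERBB2, ERBB3 and ERBB4 is known from the neuromuscular junction.

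The 3 promoters that follow belong to members described in detail: FGFR2, which was lower in spheres and in xenografts than in adherent cells, and HBEGF and ERRFI1, which were both lower in xenografts than in either culture. Each runs 5′ to 3′ in the direction of the gene, from 250 bases before to 50 bases after the annotated start (RefSeq, GRCh38.p14, all on the minus strand), and capitals mark the GC box GGGCGG on either strand, with overlapping matches run together. FGFR2 has 5 start sites in the table and the most upstream is shown, at chr10:121598395-121598694. The HBEGF window is chr5:140346554-140346853 and the ERRFI1 window chr1:8026260-8026559.
FGFR2: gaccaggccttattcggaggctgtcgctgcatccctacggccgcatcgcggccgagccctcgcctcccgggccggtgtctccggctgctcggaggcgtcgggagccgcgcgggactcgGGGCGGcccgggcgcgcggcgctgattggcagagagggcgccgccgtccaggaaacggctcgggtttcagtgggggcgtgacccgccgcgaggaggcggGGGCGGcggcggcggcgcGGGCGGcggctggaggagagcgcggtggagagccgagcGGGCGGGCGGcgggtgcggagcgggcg
HBEGF: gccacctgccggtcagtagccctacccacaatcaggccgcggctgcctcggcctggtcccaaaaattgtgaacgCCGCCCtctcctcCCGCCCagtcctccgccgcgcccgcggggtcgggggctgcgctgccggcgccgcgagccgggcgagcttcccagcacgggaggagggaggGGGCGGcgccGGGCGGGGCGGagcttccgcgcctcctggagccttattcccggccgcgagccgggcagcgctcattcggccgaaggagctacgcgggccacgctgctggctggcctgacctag
ERRFI1: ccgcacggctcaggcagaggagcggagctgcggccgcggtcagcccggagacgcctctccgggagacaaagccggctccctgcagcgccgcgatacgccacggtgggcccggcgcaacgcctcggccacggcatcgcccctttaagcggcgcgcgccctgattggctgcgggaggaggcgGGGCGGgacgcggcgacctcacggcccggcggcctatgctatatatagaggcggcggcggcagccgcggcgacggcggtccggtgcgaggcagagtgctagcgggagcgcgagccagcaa

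The promoters of FGFR2 and HBEGF held 5 GC boxes each and that of ERRFI1 held 1. The motif occurred in 45.0% of the 35116 promoters of the same length, so its presence does not set these genes apart. The 3 windows were 79.3%, 75% and 74.7% G or C, against a median of 58.7% over all promoters. An E-box of the form CAGCTG (17.9% of all promoters), an AP-1 motif TGANTCA (7.71%), a TEAD motif GGAATG (14%) and a TATA box TATAAA (11.5%) were searched on both strands and had no match in these 3 windows. Only these letters were searched, so other forms of a TATA box, such as the tatatata in the ERRFI1 window, were not counted. The genes and the motifs were chosen after the values were seen, and 8 of the 10 genes had a promoter in the table.

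The 9 arrays were close to each other as a whole, with Pearson correlations of 0.990 to 0.998 within groups and 0.965 to 0.987 between groups across all probe sets. The 7 rhabdomyosarcoma and myoblast markers were all brighter than the median probe set in every group, and their summed linear signal ran from 8521 to 8913 in adherent cells, 6184 to 6430 in spheres and 7434 to 7648 in xenografts. The summed signal of 6 fibroblast markers was 1346 to 1450 in adherent cells, 1528 to 1821 in spheres and 1685 to 2751 in xenografts, and 4 of them rose in xenografts against adherent cells. Of 5 macrophage and leukocyte markers, 1 rose in xenografts, where the sum was 131 to 145 against 96.5 to 113 in adherent cells and 98.0 to 112 in spheres. The sum of 10 adult skeletal muscle markers was 429 to 464 in adherent cells, 413 to 433 in spheres and 395 to 540 in xenografts. Of these 10, 3 rose and 2 fell in xenografts against adherent cells, MYH4 from 2.30 to 4.70 on the log2 scale, and 1 rose and 4 fell in spheres. These marker counts stand beside 12.6% of all genes that rose and 14.3% that fell in xenografts against adherent cells. In spheres the shares of all genes were 13.5% and 16.3%. The sums of 6 endothelial markers were 125 to 136, 120 to 147 and 128 to 174, in the same order of groups, and those of 5 epithelial markers 297 to 309, 450.0 to 531 and 170 to 307. In spheres VWF and EPCAM, of the endothelial and epithelial lists, rose 1.65-fold and 2.04-fold against adherent cells. The other 5 endothelial and 4 epithelial markers did not pass in that comparison. The sum of 5 adipocyte markers was between 97.8 and 117 on the 6 arrays of cultured cells and between 120 and 124 in xenografts. The probes are human, and the share of mouse RNA in the xenografts was not measured. The 3′ signal of ACTB exceeded its 5′ signal, a measure of RNA quality, by 3.20 ± 0.09 (SD, n = 3) in spheres against 2.39 ± 0.30 in adherent cells and 2.48 ± 0.23 in xenografts. The exact two-sided permutation p was 0.1 for spheres against either group, the smallest possible with 3 arrays each. The same measure for GAPDH was 0.62 ± 0.05 in spheres, 0.54 ± 0.13 in adherent cells and 0.53 ± 0.11 in xenografts. For GAPDH the permutation p of spheres was 0.5 against adherent cells and 0.4 against xenografts. The part of RNA quality and of other cells in the changes of the 10 genes was not tested. In these bulk samples fewer cells of a kind and less RNA per cell cannot be told apart.

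In spheres, ERBB3 and FGFR2 stood at 0.499 and 0.459 of their adherent signal, FGFR1 was also lower, and ERBB2 and ERRFI1 were higher. With the brightest probe set standing for each gene, 2 of the 10 rose and 3 fell (limma, adjusted p under 0.05 over all 54613 probe sets). Over the 19775 genes measured, 29.8% passed this test, 13.5% upward and 16.3% downward. The brightest probe set of every member was above the median brightness of the array. Of all probe sets above that median, 19.9% rose and 21.8% fell. For 7 of the 10 genes the sphere values lay wholly to 1 side of the adherent values, as they did for 47.7% of all genes. Of the 48 probe sets, 5 rose and 9 fell, a share of 29.2% against 26.0% of all probe sets (13.3% upward, 12.6% downward), which is near that background. The median log2 difference of the 10 genes was -0.04, the same as over all genes at this precision.

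In xenografts, HBEGF, ERRFI1, ERBB4 and FGFR2 were lower than in adherent cells and FGFR3 was higher. This made 1 gene that rose and 4 that fell of 10, against 26.9% called over all genes (12.6% upward, 14.3% downward). Of all probe sets above the median brightness, where the brightest of every member lay, 12.3% rose and 23.4% fell. There was no overlap of arrays for 5 of the 10 genes and for 43.9% of all genes. Of the probe sets, 6 rose and 10 fell, 33.3% of 48 against 23.0% of all (9.78% upward, 13.2% downward). The median log2 difference was -0.15 for the 10 genes against 0.08 over all genes, and 0.04 for the 48 probe sets against 0.07 over all probe sets. The same adherent arrays served both of these comparisons, so the 2 sets of changes are not independent.

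Against each other, xenografts and spheres differed in 9 of the 10 genes, EGFR being the exception by its brightest probe set. ERBB3, FGFR1, FGFR2 and FGFR3 were higher in xenografts, and ERBB2, ERBB4, HBEGF, FGF2 and ERRFI1 were lower. Over all genes 44.0% were called in this comparison (25.7% upward, 18.3% downward), and there was no overlap for 52.8% of all genes and for 9 of these 10. Of all probe sets above the median brightness, 24.3% were higher and 29.0% lower in xenografts. Of the probe sets, 16 rose and 7 fell, 47.9% of 48 against 39.1% of all (20.6% upward, 18.5% downward). The median log2 difference of the 10 genes was -0.23 against 0.13 over all genes, and that of the 48 probe sets ran the other way, at 0.21 against 0.10 for all probe sets.

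**Figure D1:**
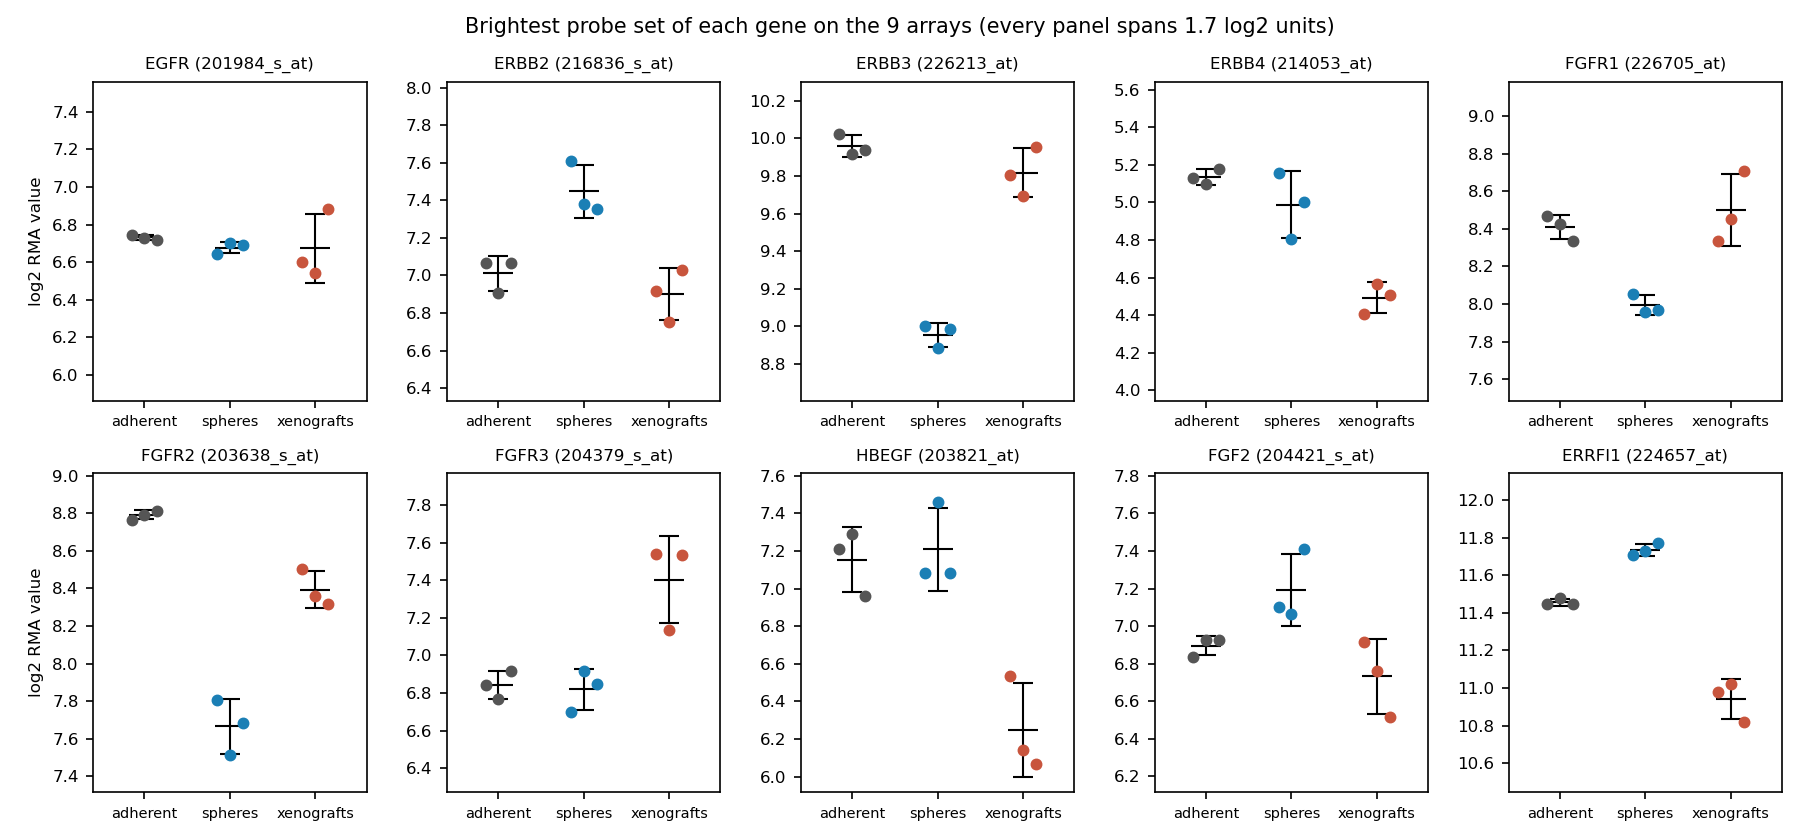
Log2 RMA value (vertical axis) of the brightest probe set of each of the 10 genes on the 9 arrays, by group (horizontal axis); points are arrays, bars are the mean and SD of 3 arrays, and every panel spans the same range of log2 units. ERBB3 lies between 8.88 and 9.0 on the sphere arrays and at 9.69 or above on the others, and HBEGF lies at 6.53 or below on the xenograft arrays and at 6.96 or above on the others.

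HBEGF encodes heparin-binding EGF-like growth factor, a ligand of EGFR and ERBB4 that is cut from the cell surface to be released. Its brightest probe set (203821_at) read 7.21, 7.29 and 6.96 in adherent cells, 7.08, 7.46 and 7.08 in spheres, and 6.53, 6.14 and 6.07 in xenografts. Every xenograft array lay under every array of cultured cells, while adherent and sphere arrays overlapped. The xenograft signal was 0.534 of the adherent signal (log2 difference -0.91, SE 0.15, limma adjusted p = 0.00131) and 0.514 of the sphere signal (-0.96, adjusted p = 4.07e-04). Spheres and adherent cells differed by 0.06 with a 95% confidence interval from -0.28 to 0.39 (adjusted p = 0.857), so neither a small rise nor a small fall in spheres can be dismissed.

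A second HBEGF probe set (38037_at) read 5.63, 5.62 and 5.61 in adherent cells, 5.42, 5.73 and 5.51 in spheres, and 5.26, 5.07 and 4.89 in xenografts. It was also lowest on the 3 xenograft arrays, at 0.685 of the adherent signal (adjusted p = 0.00569) and 0.717 of the sphere signal (adjusted p = 0.00682). The 2 dimmer HBEGF probe sets ran the other way in xenografts. 244857_at read 5.05, 4.52 and 4.81 there against 4.48, 4.48 and 4.50 in adherent cells and 4.48, 4.12 and 4.22 in spheres, a rise of 0.52 over spheres (adjusted p = 0.0106) with the difference from adherent cells at 0.30 (adjusted p = 0.129). 222076_at read 3.64, 3.80 and 3.66 against 3.31, 3.46 and 3.49 in adherent cells and 3.40, 3.33 and 3.36 in spheres. It rose by 0.28 over adherent cells (adjusted p = 0.0472, lost in 15 of 18 alternatives) and by 0.34 over spheres (adjusted p = 0.0123). With the mean of the 4 probe sets in place of the brightest, neither fall of HBEGF in xenografts passed the threshold (-0.22 against adherent cells, adjusted p = 0.0723, and -0.15 against spheres, adjusted p = 0.165).

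FGF2 encodes bFGF, the FGF that was supplied as a protein to the spheres. Its brightest probe set (204421_s_at) read 6.84, 6.92 and 6.92 in adherent cells, 7.10, 7.07 and 7.41 in spheres, and 6.92, 6.76 and 6.52 in xenografts. The sphere arrays lay above all others. Against adherent cells the difference of 0.30 (confidence interval 0.02 to 0.57) did not pass after adjustment (adjusted p = 0.112), and with array weights it did (adjusted p = 0.0125). Xenografts stood at 0.727 of the sphere signal (log2 difference -0.46, SE 0.12, adjusted p = 0.0126), and the difference between xenografts and adherent cells was -0.16 (interval -0.44 to 0.11, adjusted p = 0.367). Without sphere replicate 3, the brightest of its group, the difference from xenografts lost the call (adjusted p = 0.0615).

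The other FGF2 probe set (204422_s_at) read 6.14, 6.45 and 6.24 in adherent cells, 6.03, 6.07 and 6.35 in spheres, and 6.04, 5.66 and 4.78 in xenografts. The SD of the xenograft arrays was the largest of any group over the 48 probe sets, with xenograft replicate 3 far under the others. The fall against adherent cells was to 0.580 (log2 difference -0.79, SE 0.25, adjusted p = 0.0403). It was lost in 14 of 19 alternatives, and without xenograft replicate 3 it was -0.43 (adjusted p = 0.0688). This probe set did not repeat the higher sphere signal of the brighter one: its sphere and adherent arrays overlapped, with a difference of -0.13 (adjusted p = 0.789).

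EGFR encodes the EGF receptor itself, and its probe sets did not move together. The brightest (201984_s_at) read 6.74, 6.73 and 6.72 in adherent cells, 6.64, 6.70 and 6.69 in spheres, and 6.60, 6.54 and 6.88 in xenografts. The sphere arrays lay just under the adherent arrays, xenograft arrays lay on both sides of them, and no comparison passed. The confidence intervals of the 3 log2 differences were -0.28 to 0.17 for spheres against adherent cells, -0.28 to 0.16 for xenografts against adherent cells, and -0.23 to 0.22 for xenografts against spheres.

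The EGFR probe set 224999_at gave the largest change of any of the 48 in the comparisons against adherent cells. It read 5.76, 6.23 and 5.83 in adherent cells, 4.85, 4.43 and 4.42 in spheres, and 4.65, 4.69 and 4.32 in xenografts. The adherent arrays lay well above all others, and spheres and xenografts overlapped. The signal fell to 0.386 in spheres (log2 difference -1.37, SE 0.16, adjusted p = 5.77e-05) and to 0.382 in xenografts (-1.39, adjusted p = 1.17e-04), and both calls were kept in all 19 alternatives run for them. The difference between xenografts and spheres was -0.01, with an interval from -0.36 to 0.34.

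Another EGFR probe set (201983_s_at) moved the same way by less. It read 6.16, 6.63 and 6.11 in adherent cells, 5.86, 5.40 and 5.44 in spheres, and 5.77, 6.0 and 5.45 in xenografts. Adherent arrays were again the highest, and the signal fell to 0.602 in spheres (adjusted p = 0.00966) and to 0.678 in xenografts (adjusted p = 0.0435, lost in 13 of 19 alternatives). Of the other 6 EGFR probe sets none passed against adherent cells, and 2 were higher in xenografts than in spheres. These were 1565483_at, at 5.37, 4.97 and 5.07 against 4.73, 4.48 and 4.90 (log2 difference 0.43, adjusted p = 0.026), and 1565484_x_at, at 4.54, 4.71 and 5.01 against 4.22, 4.12 and 4.14 (0.60, adjusted p = 0.0022). Their adherent arrays read 4.73, 4.66 and 4.90, and 4.53, 4.39 and 4.33. The other 4, 211550_at, 211551_at, 210984_x_at and 211607_x_at, passed in no comparison. With the mean of the 9 probe sets EGFR was called lower in spheres than in adherent cells (-0.30, adjusted p = 0.0176) and higher in xenografts than in spheres (0.23, adjusted p = 0.0368). A direction for EGFR as a gene therefore depended on the probe set.

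**Figure D2:**
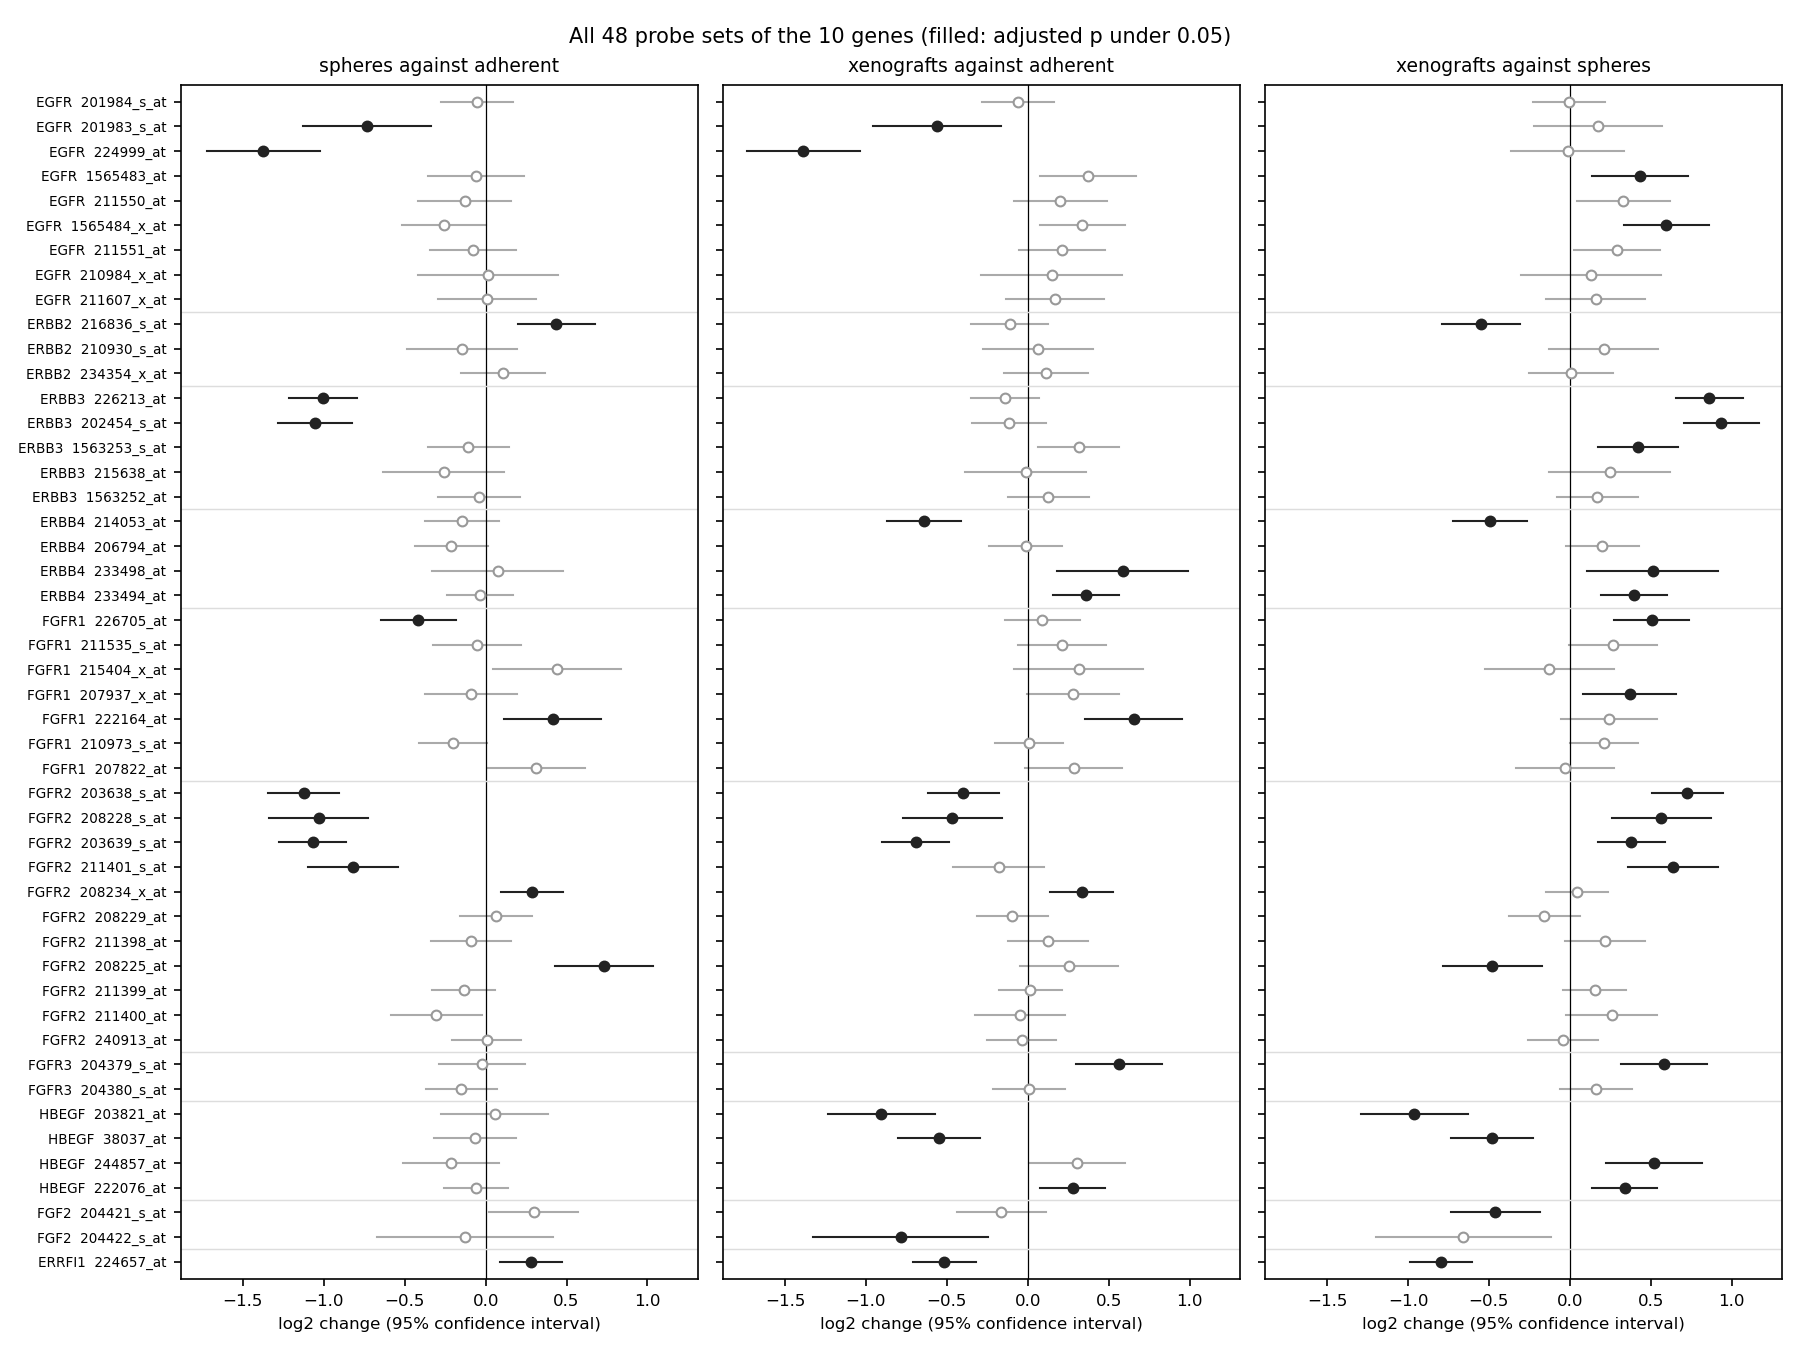
Log2 change (horizontal axis) of all 48 probe sets of the 10 genes (rows, grouped by gene) in the 3 comparisons (panels); points are fitted differences, lines are 95% confidence intervals, and filled points have an adjusted p under 0.05. EGFR 224999_at lies at -1.37 and -1.39 against adherent cells while EGFR 201984_s_at lies at -0.05 and -0.06.

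ERBB2 encodes the receptor that pairs with the other ERBB receptors. Its brightest probe set (216836_s_at) read 7.07, 6.90 and 7.07 in adherent cells, 7.61, 7.38 and 7.35 in spheres, and 6.92, 6.75 and 7.03 in xenografts. The sphere arrays lay above all others, and adherent and xenograft arrays overlapped. ERBB2 rose 1.35-fold in spheres (log2 difference 0.44, SE 0.11, adjusted p = 0.0106) and stood in xenografts at 0.684 of the sphere signal (-0.55, adjusted p = 0.00206). Xenografts and adherent cells differed by -0.11, with an interval from -0.35 to 0.13. The rise in spheres lost the call without adherent replicate 2 (adjusted p = 0.0517) and with the mean of the 3 ERBB2 probe sets (0.13, adjusted p = 0.322). With that mean the difference between xenografts and spheres was also lost (-0.11, adjusted p = 0.314). The other 2 probe sets, both dimmer than the median of all probe sets, passed in no comparison.

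ERBB3 encodes a neuregulin receptor with little kinase activity of its own, which signals mainly when paired with ERBB2. Its brightest probe set (226213_at) read 10.02, 9.92 and 9.94 in adherent cells, 9.0, 8.88 and 8.98 in spheres, and 9.81, 9.69 and 9.95 in xenografts. The sphere arrays stood apart, well under the others, and adherent and xenograft arrays overlapped. In spheres the signal was 0.499 of the adherent signal (log2 difference -1.0, SE 0.10, adjusted p = 1.34e-05), and xenografts were 1.82-fold higher than spheres (0.86, adjusted p = 3.1e-05). Xenografts and adherent cells differed by -0.14 (interval -0.35 to 0.07, adjusted p = 0.304).

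A second ERBB3 probe set (202454_s_at) gave the same picture, at 8.41, 8.64 and 8.47 in adherent cells, 7.41, 7.57 and 7.38 in spheres, and 8.41, 8.26 and 8.50 in xenografts. It stood in spheres at 0.482 of the adherent signal (adjusted p = 1.82e-05), and was 1.91-fold higher in xenografts than in spheres (adjusted p = 3.31e-05). The fall of ERBB3 in spheres and the higher signal in xenografts were thus found by its 2 brightest probe sets, which share the RNA samples. The dimmer 1563253_s_at read 5.17, 5.07 and 4.98, then 5.07, 4.97 and 4.85, then 5.58, 5.38 and 5.20 in the same order of groups. It was highest in xenografts, by 0.42 over spheres (adjusted p = 0.0124), and did not show the fall in spheres (-0.11, adjusted p = 0.59). The remaining 2 probe sets, both much dimmer than the median of all probe sets, passed in no comparison. Both calls were kept with the mean of the 5 probe sets at smaller sizes, -0.49 for spheres against adherent cells (adjusted p = 5.18e-04) and 0.53 for xenografts against spheres (adjusted p = 2.47e-04).

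ERBB4 encodes a further neuregulin receptor, which also binds HBEGF. The brightest ERBB4 probe set (214053_at) was close to the median brightness of the array and read 5.13, 5.10 and 5.18 in adherent cells, 5.16, 4.8 and 5.0 in spheres, and 4.41, 4.57 and 4.51 in xenografts. Xenografts were the lowest on all 3 arrays, and adherent and sphere arrays overlapped. The xenograft signal was 0.640 of the adherent signal (log2 difference -0.64, SE 0.10, adjusted p = 0.00113) and 0.709 of the sphere signal (-0.50, adjusted p = 0.00302). Spheres against adherent cells gave -0.15 (interval -0.38 to 0.08, adjusted p = 0.374).

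Of the 3 dimmer ERBB4 probe sets, 2 went up where the brightest went down, while 206794_at, with values from 3.63 to 4.12, passed in no comparison (-0.01 for xenografts against adherent cells, adjusted p = 0.938). 233494_at read 3.45, 3.44 and 3.51 in xenografts, 3.18, 3.16 and 2.98 in adherent cells, and 3.16, 3.0 and 3.05 in spheres. It was highest on the xenograft arrays, by 0.36 over adherent cells (adjusted p = 0.016) and 0.40 over spheres (adjusted p = 0.00555). 233498_at was also called higher in xenografts (0.59 over adherent cells, adjusted p = 0.0413, and 0.51 over spheres, adjusted p = 0.0472), although its xenograft values of 3.27, 4.11 and 3.77 overlapped the 3.31, 2.90 and 3.19 of adherent cells and the 3.29, 3.26 and 3.06 of spheres. These 2 calls were lost in 15 and 13 of 18 alternatives. With the mean of the 4 probe sets the ERBB4 difference turned to 0.07 against adherent cells and 0.15 against spheres, and neither passed (adjusted p = 0.521 and 0.141).

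FGFR1 encodes an FGF receptor that binds FGF2 with high affinity. The brightest FGFR1 probe set (226705_at) read 8.47, 8.42 and 8.34 in adherent cells, 8.06, 7.96 and 7.97 in spheres, and 8.34, 8.45 and 8.71 in xenografts. Spheres were lowest on all 3 arrays, and adherent and xenograft arrays overlapped. The sphere signal was 0.750 of the adherent signal (log2 difference -0.42, SE 0.11, adjusted p = 0.0121), a call that was lost without adherent replicate 1 (adjusted p = 0.0515). Xenografts were 1.42-fold higher than spheres (0.51, adjusted p = 0.00295) and differed from adherent cells by 0.09 (interval -0.14 to 0.32).

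The second FGFR1 probe set by brightness (211535_s_at) did not show the fall in spheres. It read 8.01, 8.25 and 8.22 in adherent cells, 7.94, 8.22 and 8.16 in spheres, and 8.29, 8.22 and 8.60 in xenografts, with overlapping groups and a difference of -0.05 for spheres against adherent cells (interval -0.33 to 0.22). 222164_at went up in both other groups, from 5.01, 5.40 and 4.86 in adherent cells to 5.44, 5.57 and 5.50 in spheres and 5.90, 5.73 and 5.6 in xenografts. The rise in xenografts was 1.57-fold (adjusted p = 0.00509, kept in 17 of 19 alternatives), and that in spheres 1.33-fold (adjusted p = 0.0427, lost in 11 of 19). 207937_x_at was called higher in xenografts than in spheres, at 6.28, 6.51 and 6.84 against 6.28, 6.13 and 6.10 (0.37, adjusted p = 0.0423), with 1 array of each group at the same value and the call lost in 12 of 19 alternatives. Its adherent arrays read 6.32, 6.18 and 6.28. With the mean of the 7 probe sets the FGFR1 difference between spheres and adherent cells turned to 0.06, FGFR1 was called 0.26 higher in xenografts than in adherent cells (adjusted p = 0.0110), and the difference between xenografts and spheres was 0.21 (adjusted p = 0.0219). The other 3 probe sets, 215404_x_at, 210973_s_at and 207822_at, passed in no comparison.

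FGFR2 encodes an FGF receptor made in splice forms that differ in which FGFs they bind. The brightest FGFR2 probe set (203638_s_at) read 8.77, 8.79 and 8.81 in adherent cells, 7.81, 7.51 and 7.68 in spheres, and 8.50, 8.36 and 8.32 in xenografts. No array of any group overlapped another group, and the order was adherent cells, xenografts, spheres. In spheres the signal was 0.459 of the adherent signal (log2 difference -1.12, SE 0.10, adjusted p = 8.2e-06), the lowest share of the 10 genes by brightest probe set. In xenografts it was 0.759 (-0.40, adjusted p = 0.0141), and xenografts were 1.65-fold above spheres (0.73, adjusted p = 1.58e-04). The smaller fall in xenografts was lost after quantile normalization (adjusted p = 0.110), without adherent replicate 3 (adjusted p = 0.0535) and with the mean of the 11 probe sets (-0.11, adjusted p = 0.217). That mean kept the other 2 calls at smaller sizes, -0.32 in spheres (adjusted p = 0.00265) and 0.21 for xenografts against spheres (adjusted p = 0.0195).

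Of the 4 further FGFR2 probe sets above the median brightness of the array, 3 repeated the fall in spheres. 208228_s_at read 8.10, 8.25 and 8.21 in adherent cells, 7.12, 7.13 and 7.21 in spheres, and 8.06, 7.68 and 7.42 in xenografts, and stood in spheres at 0.489 of the adherent signal (adjusted p = 1.69e-04). 203639_s_at read 7.09, 7.23 and 7.14, then 6.13, 6.12 and 6.0, then 6.55, 6.34 and 6.51, and stood at 0.476 (adjusted p = 7.87e-06). 211401_s_at read 5.55, 5.99 and 5.78, then 5.0, 5.10 and 4.75, then 5.51, 5.66 and 5.61, and stood at 0.567 (adjusted p = 4.81e-04). In these 3 the sphere arrays were the lowest of all, and xenografts were higher than spheres by 0.57, 0.38 and 0.64 (adjusted p = 0.00751, 0.00824 and 0.00212). Against adherent cells the xenograft signal was 0.724, 0.619 and 0.882, and the first 2 passed (adjusted p = 0.0318, lost in 11 of 19 alternatives, and 3.68e-04), while 211401_s_at did not (adjusted p = 0.329).

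Of the remaining 7 FGFR2 probe sets 2 moved the opposite way. 208225_at read 3.46, 3.49 and 3.51 in adherent cells, 3.87, 4.53 and 4.26 in spheres, and 3.76, 3.75 and 3.72 in xenografts, rising 1.66-fold in spheres (adjusted p = 0.00187), with xenografts 0.48 lower than spheres on the log2 scale (log2 difference -0.48, adjusted p = 0.0178). 208234_x_at read 5.30, 5.19 and 5.13, then 5.44, 5.49 and 5.55, then 5.50, 5.57 and 5.55. This probe set was called 0.29 higher in spheres (adjusted p = 0.0311, lost in 9 of 19 alternatives) and 0.33 higher in xenografts (adjusted p = 0.0185). It is of a type, ending in _x_at, that the maker marks as prone to cross-hybridisation. The called EGFR 1565484_x_at and FGFR1 207937_x_at are of the same type. The other 5 passed in no comparison. The transcripts that each probe set covers were not examined, so these opposite calls are not assigned to splice forms.

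FGFR3 encodes a further FGF receptor. Its brighter probe set (204379_s_at) read 6.84, 6.77 and 6.92 in adherent cells, 6.70, 6.92 and 6.85 in spheres, and 7.54, 7.14 and 7.53 in xenografts. Only the xenograft arrays stood apart, above all others, while adherent and sphere arrays overlapped. FGFR3 rose 1.48-fold in xenografts over adherent cells (log2 difference 0.56, SE 0.12, adjusted p = 0.00617) and 1.5-fold over spheres (0.58, adjusted p = 0.0027), and spheres differed from adherent cells by -0.02 (interval -0.29 to 0.24). The dim probe set 204380_s_at, with values from 2.69 to 3.1 over the 9 arrays, passed in no comparison. The rises, with both probe sets averaged, were 0.29 (adjusted p = 0.0388) and 0.37 (adjusted p = 0.00723).

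ERRFI1 encodes a cytoplasmic protein that binds active EGFR and ERBB2 and blocks their kinase activity, and its own transcription is known to be raised by EGF signaling. Its single probe set (224657_at), brighter than 98.6% of all probe sets, read 11.44, 11.48 and 11.44 in adherent cells, 11.71, 11.73 and 11.77 in spheres, and 10.98, 11.02 and 10.82 in xenografts. The 3 groups did not overlap, and the order was spheres, adherent cells, xenografts. Xenografts stood at 0.700 of the adherent signal (log2 difference -0.52, SE 0.09, adjusted p = 0.00155) and at 0.576 of the sphere signal (-0.80, adjusted p = 3.12e-05). The rise in spheres was 1.22-fold (0.28, SE 0.09, adjusted p = 0.0348), and it was lost with the replicate number as a block (adjusted p = 0.0607), with arrays centred on their medians (adjusted p = 0.0768), and when any single adherent or sphere array was left out (adjusted p from 0.0602 to 0.113).

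Bright and dim probe sets of these genes were also counted apart. Of the 48 probe sets, 26 were above the median brightness of the array and 22 under it. In xenografts against adherent cells, 3 of the 26 bright probe sets rose and 10 fell. Their median log2 difference was -0.13 beside -0.03 over all bright probe sets, of which 12.3% rose and 23.4% fell. Of the 22 dim ones, 3 rose and none fell, with a median of 0.14 beside 0.11 over all dim probe sets, of which 7.25% rose and 3.05% fell. More falls than rises among bright probe sets, and more rises than falls among dim ones, was thus the pattern of the whole array in xenografts, and the lower and upper quartiles of the arrays moved with it: 3.36 to 3.39 and 6.89 to 6.90 in xenografts against 3.26 to 3.31 and 7.02 to 7.06 in adherent cells. In spheres against adherent cells 4 of the bright member probe sets rose and 9 fell (19.9% and 21.8% of all bright ones), and 1 of the dim ones rose (6.74% of all dim ones). In xenografts against spheres 11 of the bright rose and 6 fell, with a median of 0.23 beside 0.00 for all bright probe sets, of which 24.3% rose and 29.0% fell. Of the dim, 5 rose and 1 fell, beside 16.8% and 8.05% of all dim probe sets.

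**Figure D3:**
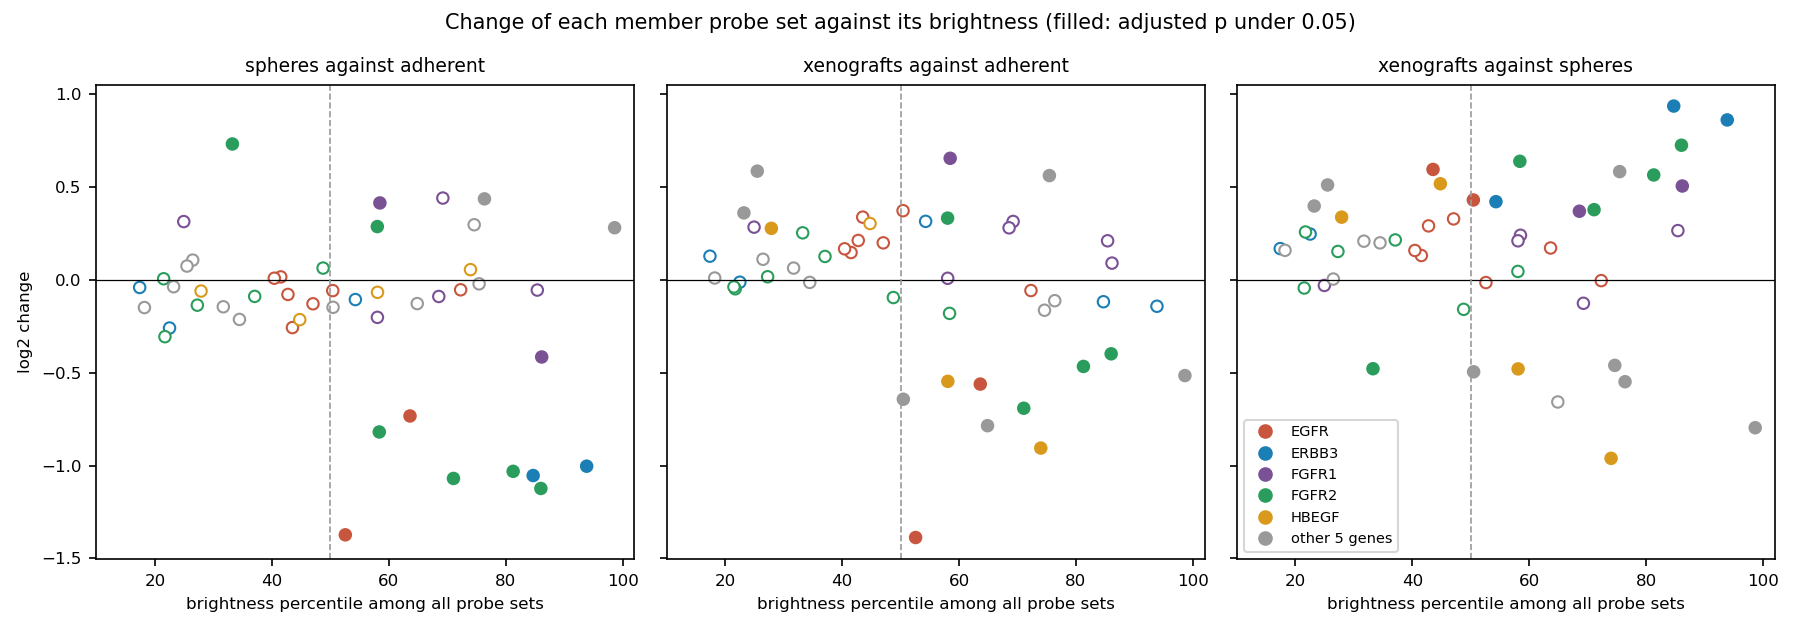
Log2 change (vertical axis) of each of the 48 probe sets against its brightness, given as the percentile of its mean over the 9 arrays among all probe sets (horizontal axis; dashed line at the median), in the 3 comparisons (panels); colors mark 5 genes and filled points have an adjusted p under 0.05. Against adherent cells, none of the 22 dim probe sets fell in xenografts and 10 of the 26 bright ones did, beside 3.05% of all dim and 23.4% of all bright probe sets on the array.

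Further genes of the pathways were counted by their brightest probe sets from 6 lists, to be read beside the shares of all genes that rose and fell, 13.5% and 16.3% in spheres, 12.6% and 14.3% in xenografts, and 25.7% and 18.3% in xenografts against spheres. Of 8 other EGF family ligands measured, 1 rose in spheres, and 1 rose and 1 fell in xenografts, all against adherent cells. TGFA, a ligand of EGFR, stood in xenografts at 0.200 of the adherent signal (log2 difference -2.32, SE 0.12, adjusted p = 3.89e-07) and at 0.167 of the sphere signal (-2.58, adjusted p = 5.79e-08). NRG1, the neuregulin that binds ERBB3 and ERBB4, rose 1.74-fold in spheres (adjusted p = 7.83e-04) and 1.60-fold in xenografts (adjusted p = 0.00343), and neither rise passed with the mean of its probe sets (adjusted p = 0.437 and 0.0721). TGFA was the 1 ligand of this list that passed the test between xenografts and spheres.

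Of 21 other genes of the FGF family, 1 rose and 3 fell in spheres, and 6 rose and 1 fell in xenografts. Of the 6 that rose in xenografts, 4 were dimmer than the median probe set, the class that shifted upward across the array. FGF7, which binds an FGFR2 splice form, stood at 0.195 of the adherent signal in spheres (log2 difference -2.36, adjusted p = 2.04e-06) and at 0.161 in xenografts (-2.63, adjusted p = 2.33e-06). FGF8, an FGF known from embryonic patterning, fell to 0.393 in spheres (-1.35, adjusted p = 1.37e-05) and rose 1.76-fold in xenografts (0.82, adjusted p = 8.98e-04), so that xenografts were 4.49-fold above spheres (2.17, adjusted p = 3.71e-07). Of the list, 7 genes were higher in xenografts than in spheres, 4 of them dim, and none was lower, with a median log2 difference of 0.21 beside 0.13 over all genes.

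Of 19 other FGF receptors, coreceptors and FGF-binding proteins, 2 rose and 5 fell in spheres, 1 rose and 6 fell in xenografts, and 4 were higher and 6 lower in xenografts than in spheres. The 1 that rose in xenografts against adherent cells was the receptor FGFR4 (1.27-fold, adjusted p = 0.0416; named after its values were seen). Its adherent mean of 11.35 was above those of FGFR1 (8.41), FGFR2 (8.79) and FGFR3 (6.84) by brightest probe set. On the same adherent arrays the means of the FGFR2 probe sets ran from 3.13 to 8.79. Levels of different probe sets therefore do not rank these genes by amount of RNA. The FGFR4 difference between spheres and adherent cells did not pass (log2 difference -0.23, adjusted p = 0.159). Heparan sulfate carriers moved in both directions. GPC1 stood at 0.431 of the adherent signal in spheres (adjusted p = 5.36e-06) and at 0.468 in xenografts (adjusted p = 2.85e-05). GPC3 fell to 0.389 in spheres (adjusted p = 1.57e-05) and was 2.51-fold higher in xenografts than in spheres (adjusted p = 1.49e-05). GPC4 fell to 0.225 in xenografts (log2 difference -2.15, adjusted p = 1.55e-05) and SDC1 to 0.484 (-1.05, adjusted p = 2.08e-05), while SDC2 and SDC3 rose 1.37-fold and 1.38-fold in spheres (adjusted p = 0.009 and 0.0154; named after their values were seen).

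Among negative regulators of the receptors or of the RAS-ERK cascade, 6 of 15 rose and 1 fell in spheres, with a median log2 difference of 0.23 beside -0.04 over all genes. DUSP6, a phosphatase that switches off ERK, rose 2.20-fold in spheres (1.14, SE 0.09, adjusted p = 3.74e-06) and 1.73-fold in xenografts (0.79, adjusted p = 1.18e-04). SPRY4, an inhibitor of the path from receptor to RAS, rose 1.89-fold in spheres (adjusted p = 0.00157) and 2.35-fold in xenografts (adjusted p = 3.74e-04). In xenografts 3 of the list rose and 2 fell against adherent cells, and against spheres 1 was higher and 7 were lower, LRIG2 among the latter at 0.553 of the sphere signal (adjusted p = 9.76e-05). DUSP6 and SPRY4 were thus above adherent cells in both groups, whereas ERRFI1 was above them in spheres and under them in xenografts.

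Of 14 adaptors and members of the RAS-ERK relay measured, 2 rose and 2 fell in spheres, and 1 rose and 7 fell in xenografts, where the median log2 difference was -0.28 beside 0.08 over all genes. Against spheres, 4 of the 14 were higher in xenografts and 6 were lower, with a median of -0.24 beside 0.13 over all genes. GAB2, an adaptor that docks to receptor complexes, rose 1.65-fold in spheres (adjusted p = 0.00119) and fell to 0.517 in xenografts (adjusted p = 3.24e-04). Of 10 genes for the shedding of EGF family ligands, 1 rose and 3 fell in spheres, and 1 rose and 5 fell in xenografts. Between xenografts and spheres, 4 of these 10 were higher in xenografts and 4 were lower, with a median log2 difference of 0.02. ADAM17, the main protease that releases TGFA and HBEGF from the cell surface, rose 1.65-fold in spheres (adjusted p = 1.03e-04) and stood in xenografts at 0.483 of the sphere signal (adjusted p = 4.98e-06). RHBDF1, which takes part in the maturation of ADAM17, stood in xenografts at 0.427 of the adherent signal (adjusted p = 2.32e-05) and at 0.351 of the sphere signal (adjusted p = 1.64e-06).

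**Figure D4:**
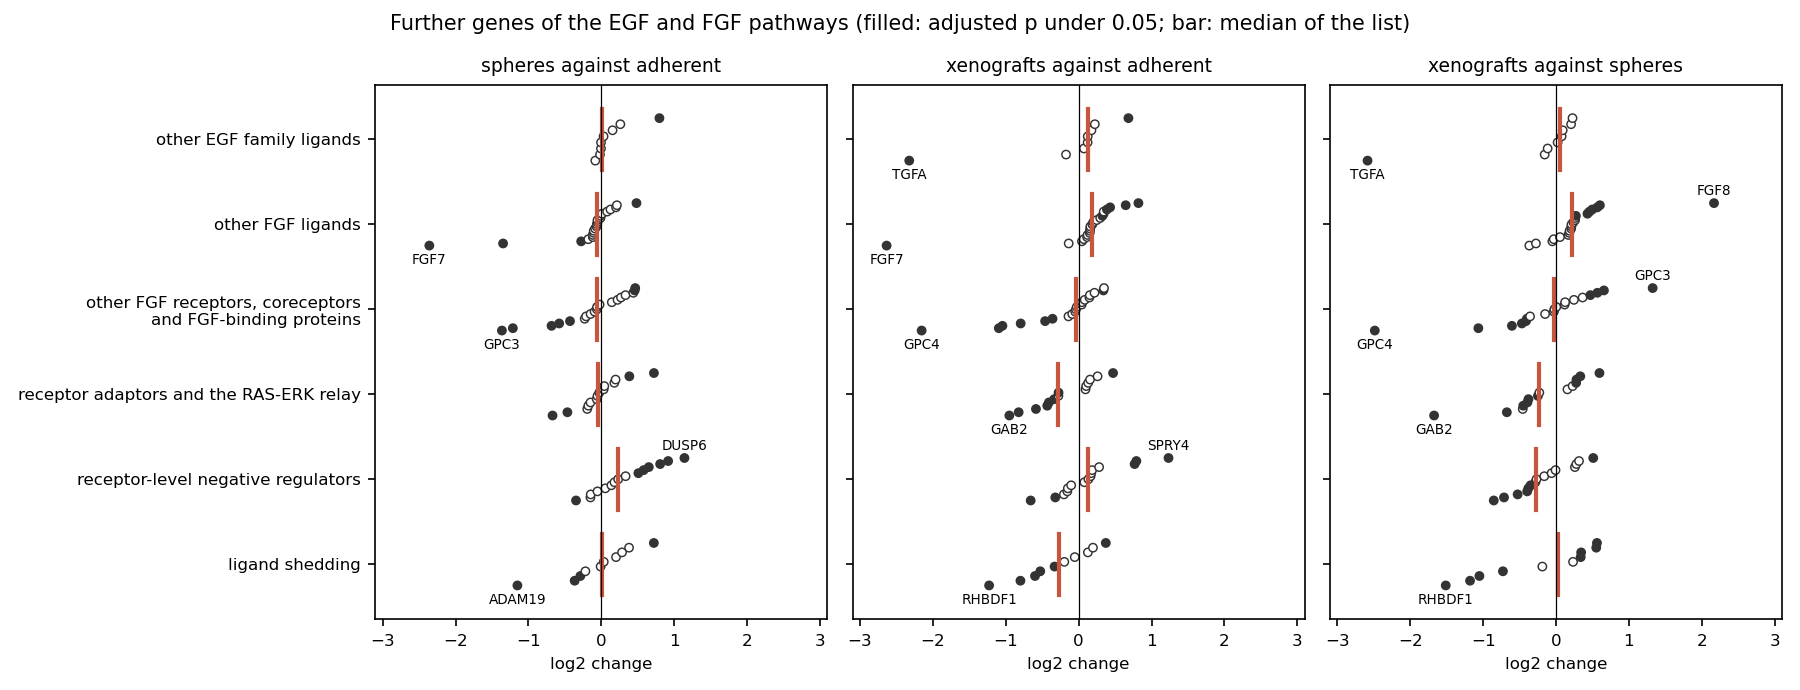
Log2 change (horizontal axis) of every measured gene of 6 pathway lists (rows) in the 3 comparisons (panels); points are genes by their brightest probe sets, filled where the adjusted p is under 0.05, and bars are the medians of the lists. TGFA lies at -2.32 and FGF7 at -2.63 in xenografts against adherent cells, and DUSP6 at 1.14 in spheres against adherent cells.

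The genes whose values ran most like those of each member called in a comparison, which leaves out EGFR, over the 9 arrays were found among 12673 genes brighter than the median probe set, as a description only, since the 9 points fall into 3 groups and many genes differ between them. ERBB3 ran most like DHCR7 and GLRX5 (Pearson r 0.997 and 0.994), FGFR2 like TUBB6 and CAPZB (0.996 and 0.995), and ERRFI1 like ANXA1 and FAM169A (both 0.997). HBEGF ran most like TOM1L1 and HTRA1 (0.979 and 0.976), FGF2 like BTBD10 and ZNF320 (0.987 and 0.984), and FGFR1 like TUBGCP2 and TCOF1 (0.989 and 0.982). The nearest genes were HIF1AN and CCDC93 for ERBB4 (0.989 and 0.983), RPP38 and RIPOR2 for FGFR3 (0.981 and 0.978), and TYW1 and ANXA2R for ERBB2 (0.973 and 0.971).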

How the data were processed

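Per the labels, the deposited values are log2 signals that the authors made by RMA, a method that subtracts background, gives all arrays the same distribution and sums up the probes of a set. The software and its version are not given in the sources used here. A limma model (version 3.58.1, R 4.3.3; lmFit, then eBayes) was fitted to 9 arrays and 54613 probe sets, each group having its own coefficient, which left 6 residual degrees of freedom, control probe sets excluded. Benjamini-Hochberg adjustment ran over the whole table, with 0.05 as the threshold. The brightest probe set by mean, among those with 1 symbol, stood for each gene. Shares such as 0.499 are 2 to the power of the log2 difference, and intervals are at 95%. Groups came from the sample titles. The study describes biological triplicates, and p-values measure the spread among these arrays, whose number limits the precision. The members, the 6 pathway lists and the marker lists were chosen with earlier results of these data known. Values on every array are given for the brightest probe set of each member and any other that was called, and the rest are counted. Also named were up to 4 changed genes per list and comparison, and the 2 nearest genes of each changed member. Marker genes were named after their values were seen. The fit was tested on simulated data. Alternatives covered normalization, scaling, a filter, the arrays fitted, the variance model, array weights, a replicate block, the methods' t-test, an added 2-fold threshold, averaging of probe sets, and each array left out. Promoters came from a RefSeq table of GRCh38.p14.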

Additional observations from a re-analysis of the deposited data

How the results depend on the processing

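The 3 comparisons held 19 called changes of the 10 genes. All 19 were kept with dim probe sets left out, in fits of the compared groups alone, with a variance trend, with array weights and in the methods' t-test without adjustment, 18 with median centring, 17 after quantile normalization, 13 in the adjusted t-test, and 17 to 19 when 1 array was left out. With all probe sets of a gene averaged 11 were kept, 5 were lost and 3 turned direction without passing (FGFR1 in spheres, and ERBB4 in xenografts against either culture). Only 2 were also 2-fold, ERBB3 and FGFR2 in spheres against adherent cells. The cause of these differences was not tested.

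Counts moved as follows. In spheres against adherent cells, the added 2-fold threshold left 2 genes of 5 and 6 probe sets of 14, and leaving out 1 array gave 3 to 5 genes, with 3 without adherent replicate 1 or 2. In xenografts against adherent cells, the adjusted t-test gave 3 genes of 5 and 7 probe sets of 16, the 2-fold threshold 0 genes and 1 probe set, the mean of all probe sets 3 genes (2 higher, 1 lower), and quantile normalization 9 probe sets. Leaving out 1 array gave 8 to 18 probe sets there, with 10 without adherent replicate 2 and 8 without adherent replicate 3. In xenografts against spheres, the adjusted t-test gave 5 genes of 9 and 10 probe sets of 23, and the 2-fold threshold 0 of each.

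Besides those 3 called changes, the direction turned for differences of members that had not been called and for 1 called change of a list. The turned values, with the mean of all probe sets, were FGFR1 (0.058) and HBEGF (-0.072) in spheres against adherent cells, ERBB2 (0.021), ERBB3 (0.034) and ERBB4 (0.073) in xenografts against adherent cells, EGFR (0.23) and ERBB4 (0.15) in xenografts against spheres, and NRDC, a gene of the shedding list, in spheres (0.25, against -0.29 as fitted). After quantile normalization EGFR turned to 0.079 and ERBB2 to 0.037 in xenografts against adherent cells, and EGFR to 0.17 against spheres. Leaving out 1 array gave a range that crossed 0 for FGFR3 (-0.069 to 0.039) and HBEGF (-0.072 to 0.12) in spheres against adherent cells, EGFR (-0.16 to 0.0093) and FGFR1 (-0.014 to 0.17) in xenografts against adherent cells, and EGFR (-0.11 to 0.063) in xenografts against spheres. Among the 6 calls lost in the adjusted t-test, the FGFR3 rise over adherent cells and the HBEGF fall missed the threshold there (adjusted p = 0.0962 and 0.0613), as did the FGF2 difference between xenografts and spheres (0.128), which was also lost after quantile normalization (0.082).

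Replicate numbers did not pair the arrays: 2 of 9 same-numbered pairs had correlated deviations over 0.1 (range -0.18 to 0.18). With the replicate block 4, 5 and 9 genes and 12, 13 and 21 probe sets were called in the 3 comparisons, and of the 19 calls only the rise of ERRFI1 in spheres was lost. The alternatives for the dimmer probe sets and for the genes of the lists were added after the values were seen, and the counts of lost calls given for them include the added 2-fold threshold.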
